A study of Arabidopsis thaliana with 9 samples.

Results

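UDP-glycosyltransferases (UGTs) are enzymes that move a sugar from a nucleotide-sugar donor, most often UDP-glucose, onto a small acceptor. In plants the acceptors include hormones, monolignols, flavonoids, glucosinolate precursors and foreign compounds, and the added sugar changes the solubility, storage and activity of the acceptor. Many members of the large plant family (family 1) stand side by side on the chromosome as tandem duplicates, and closely related members can differ in the acceptor they take. The genes described here are those whose description in the authors' deposited cesium table names a UDP-glycosyltransferase or a UDP-glucosyl transferase, 128 of the 37328 genes in that table. The rule reads the descriptions alone, although the gene group itself was picked with earlier results of these data known. By the InterPro entries in RefSeq's annotation, 110 of them carry the family 1 domain. The other 18 carry another glycosyltransferase domain, among them GBSS1, a starch synthase, DGD1, which makes the galactolipid digalactosyldiacylglycerol, and ATTPS6 of the trehalose-6-phosphate synthase family.

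RNA of roots of Arabidopsis thaliana Col-0 wild type was measured in 9 libraries, 3 for each growth condition. Cesium roots were given 0.5 mM KCl and CsCl, in an amount that the labels write as 0.3 with mL as its unit. Low-potassium roots were given 0.025 mM KCl, and control roots 0.5 mM KCl. All plants grew on agarose medium with sucrose, and all were of the same genotype with no transgene named. Plants have no known need for cesium, an ion close to potassium in its chemistry that roots take up by some of the same routes. The design set each stress against 1 shared control. Replicates are called biological in the labels, but separate cultures are not mentioned. The p-values therefore measure the spread among these 9 samples, and that spread may be technical.

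Values are FPKM (fragments per unit of transcript length and of mapped library), and can be compared between genes. Depth is unknown, so no counting error stands beside single values. FPKM summed to between 714170 and 844153 per library, the lowest sum being that of cesium replicate 3. All 8 root markers were tested. CASP1, an endodermal marker, averaged 156 ± 28 FPKM in cesium, 163 ± 16.8 FPKM in low potassium and 343 ± 38.1 FPKM in control, and GL2 of hairless epidermal cells 9.36 ± 0.832, 7.99 ± 0.395 and 14 ± 0.757 FPKM in the same order (all 4 comparisons with control passed as lower). The root hair marker COBL9 averaged 9.45 ± 4.26, 8.64 ± 5.13 and 23.4 ± 4.57 FPKM in that order and passed as lower in low potassium, and WOX5 of the quiescent centre passed as higher in cesium (log2 change 0.76 ± 0.18). The other 4 root markers passed in neither comparison with control. Of the shoot markers, 7 of the 8 outside photosynthesis averaged under 1 FPKM, FAMA being listed at 0 throughout. Summed FPKM of these 8 shoot markers was 3.70 to 4.01 in cesium, 1.56 to 1.98 in low potassium and 1.97 to 2.89 in control libraries. The 5 photosynthesis markers summed to 814 to 1470 FPKM in cesium, 190 to 225 FPKM in low potassium and 294 to 399 FPKM in control libraries. The part of these differences in the results below was not tested. In RNA of whole roots, fewer cells of a type and less RNA per cell cannot be told apart.

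A pair of libraries stood apart from the others of their group in the UGT genes. Of the 97 UGT genes tested, 19 (19.6%) were at least 1.5 times lower in cesium replicate 3 than in each of the other cesium libraries, against 5.47% of all genes tested. In control replicate 3, 10 UGT genes (10.3%) were at least 1.5 times higher than in each of the other control libraries, against 1.64% of all genes tested. These 10 include UGT78D1, UGT78D2, UGT84A1, UGT84A2 and UGT74D1. In the same library the 10 flavonoid synthesis genes listed for this work summed to 2030 FPKM, against 917 and 762 FPKM in control replicates 1 and 2. Without cesium replicate 3, 10 UGT genes gained and 4 lost a call in cesium against control, and 8 gained and 0 lost one in low potassium against control. Without control replicate 3 it was 0 gained and 7 lost in cesium, and 3 gained and 7 lost in low potassium.

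Per-library values were at hand for 127 UGT genes, and 97 of them, 79 with the family 1 domain and all 18 others, averaged at least 1 FPKM and were tested. The 30 below that level averaged at most 0.53 FPKM. They include UGT84B1, UGT73C6, UGT71B8, UGT78D3 and UGT79B6, and 3 of them (UGT85A3, UGT73C2 and AT5G65550) were listed at 0 in all 9 libraries. Only UGT85A7 and UGT76E1 among the 30 reached 1 FPKM in any library, so low-level responses are missing from the counts below. Per-library values of UGT71B6, which glucosylates abscisic acid (ABA), were not analysed here. In the authors' deposited table UGT71B6 had 0.361 FPKM in cesium against 0.236 FPKM in control and was not tested there. The authors' deposited table gives it 1.29 FPKM in low potassium against 0.236 FPKM in control (log2 change 2.46, q = 0.000491).

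The most abundant UGT gene in these roots was UGT72E2, a monolignol glucosyltransferase. It had 330, 246 and 133 FPKM in cesium, 378, 382 and 370 FPKM in low potassium and 236, 260 and 303 FPKM in control replicates 1 to 3. UGT72B1, which conjugates chlorinated phenols and monolignols, averaged 140 ± 46.0 FPKM in cesium, 179 ± 20.4 FPKM in low potassium and 148 ± 5.96 FPKM in control (SD, n = 3 each). Next in order of mean level came UGT72E1, UGT74B1, UGT85A2 and UGT76B1, the lowest of these averaging 73.9 FPKM over the 9 libraries. Tested family 1 genes had a median of 11.8 FPKM and ranged between 1.03 and 293 FPKM. The other-domain genes had a similar median of 10.7 FPKM and a narrower range, 1.20 to 33.0 FPKM.

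Summed over all members with values, UGT transcripts took 2256, 1981 and 1593 FPKM in cesium, 2243, 2324 and 2103 FPKM in low potassium and 1836, 1932 and 2266 FPKM in control replicates 1 to 3. The cesium and control ranges overlapped. Each low-potassium library was above control replicates 1 and 2, and the ranges of those groups met only through control replicate 3.

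The 250 bases before the annotated start are shown for 6 genes on which the results below turn. They were chosen after their values were seen, from genes whose window lies outside every other annotated gene, and are RefSeq's TAIR10.1 sequence read on the gene's strand. UGT71B5 and AT4G15260 are tandem neighbours, UGT73B1 was higher under both stresses, UGT72E1 was higher in low potassium, UGT72E3 was lower under both stresses, and UGT76D1 moved in opposite directions. Capitals mark TGACG (the core bound by TGA factors), TTGAC (the core of the W box) and ACGTG (the core of the G box and ABA-responsive element) on either strand, so TTGAC also shows as GTCAA. The first motif can share bases with each of the others where they abut.
UGT71B5 (chr4:8718772-8719021, plus strand): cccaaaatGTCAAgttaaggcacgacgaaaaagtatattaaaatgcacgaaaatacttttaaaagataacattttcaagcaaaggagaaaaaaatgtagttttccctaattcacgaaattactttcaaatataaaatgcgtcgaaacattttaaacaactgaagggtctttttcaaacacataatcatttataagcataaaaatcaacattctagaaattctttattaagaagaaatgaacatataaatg
AT4G15260 (chr4:8713439-8713688, plus strand): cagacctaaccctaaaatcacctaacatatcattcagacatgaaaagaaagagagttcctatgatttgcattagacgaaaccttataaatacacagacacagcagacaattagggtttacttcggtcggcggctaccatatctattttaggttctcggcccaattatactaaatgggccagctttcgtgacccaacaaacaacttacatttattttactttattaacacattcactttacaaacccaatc
UGT73B1 (chr4:16350204-16350453, minus strand): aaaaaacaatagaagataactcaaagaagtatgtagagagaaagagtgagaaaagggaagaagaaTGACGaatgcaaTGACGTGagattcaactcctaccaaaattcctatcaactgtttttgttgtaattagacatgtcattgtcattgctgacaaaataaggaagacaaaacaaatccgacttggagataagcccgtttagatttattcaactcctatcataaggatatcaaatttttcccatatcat
UGT72E1 (chr3:18857041-18857290, minus strand): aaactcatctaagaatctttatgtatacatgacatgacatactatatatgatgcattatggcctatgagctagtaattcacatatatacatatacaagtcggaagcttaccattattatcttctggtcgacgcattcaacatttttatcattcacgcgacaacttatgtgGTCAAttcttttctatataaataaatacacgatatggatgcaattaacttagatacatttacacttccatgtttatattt
UGT72E3 (chr5:9234350-9234599, plus strand): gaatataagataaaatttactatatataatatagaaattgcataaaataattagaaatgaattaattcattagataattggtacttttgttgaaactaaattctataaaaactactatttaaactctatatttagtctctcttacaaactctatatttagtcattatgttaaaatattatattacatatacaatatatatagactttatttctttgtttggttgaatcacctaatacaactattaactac
UGT76D1 (chr2:11263639-11263888, plus strand): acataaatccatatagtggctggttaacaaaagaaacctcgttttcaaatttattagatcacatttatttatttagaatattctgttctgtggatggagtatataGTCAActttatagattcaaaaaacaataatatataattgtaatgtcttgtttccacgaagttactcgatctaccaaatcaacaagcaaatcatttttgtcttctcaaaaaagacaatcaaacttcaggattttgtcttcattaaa

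In these windows UGT73B1 holds TGACG in 2 places and ACGTG in 1, and UGT71B5, UGT72E1 and UGT76D1 hold TTGAC in 1 place each. None of the 3 motifs was found in the windows of AT4G15260 and UGT72E3, which says only that these letters are not there. Over all 128 UGT genes 20.3% of windows held the TGA core, 50.0% the W-box core and 28.9% the G-box core. The shares among 27443 windows of all genes were 18.6%, 44.9% and 22.9%. Of the 11 UGT genes higher in cesium, 3 held the TGA core, 6 the W-box core and 3 the G-box core. A match is a description of the sequence and was not tested as a binding site.

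Cesium roots were set against control roots at the same KCl. UGT71B5 rose most, UGT84A3 of the hydroxycinnamate glucosyltransferases, UGT73B4 and AT3G46700 rose by about 1 or more on the log2 scale, and UGT72E3 and UGT84A2 fell most. With limma at an adjusted p of 0.05, 25 of the 97 tested UGT genes passed (25.8%), 11 higher and 14 lower, against 23.5% of all 19536 genes tested (10.8% higher and 12.7% lower). By the authors' deposited q-values, 33 of these 97 genes passed (34.0%), 14 higher and 19 lower, against 22.5% of all genes tested there. The share was thus near that of all genes with limma and above it with the authors' test, and the difference between shares was not tested. Without cesium replicate 3, 18 UGT genes were higher and 13 lower. The median log2 change of the tested UGT genes was -0.11, against 0.020 for all genes. A log2 change of 1 or more was found for 7 of the 25, 4 higher and 3 lower. In none of the 25 did the cesium and control libraries overlap, and of all 97 tested UGT genes 47 had no overlap. The share without overlap over all genes was not counted, so nothing is read from this.

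All 25 called genes were family 1 members (25 of 79). Of the 18 other-domain genes, 0 passed with limma, while 3 had an unadjusted p under 0.05 and 2 passed by the authors' deposited q-values. The plot of ranked changes shows every tested gene.

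**Figure D1:**
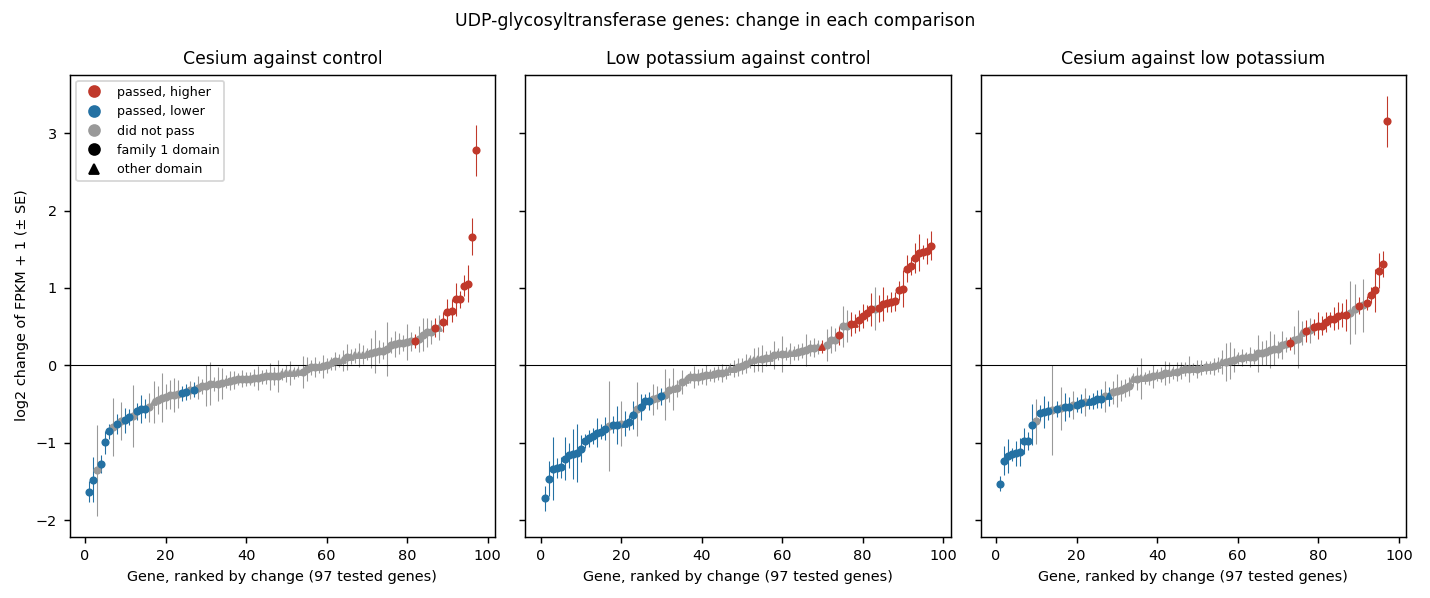
Log2 change of FPKM + 1 (± SE) of the 97 tested UGT genes, ranked from lowest to highest. Panels show cesium and low potassium, each against control, and then cesium against low potassium. Red points are genes called higher at an adjusted p of 0.05, blue points genes called lower, grey the rest, and triangles are other-domain genes: 25, 47 and 40 genes passed in the 3 panels, and UGT71B5 stands far above the rest wherever cesium is compared.

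UGT71B5 belongs to a subfamily in which UGT71B6 and UGT71B8 glucosylate ABA. It had 21.9, 17.4 and 6.97 FPKM in cesium, 0.567, 1.08 and 0.457 FPKM in low potassium and 1.02, 1.45 and 1.11 FPKM in control replicates 1 to 3. All cesium libraries were above all others, cesium replicate 3 being the lowest of them, while the low-potassium and control libraries overlapped. The log2 change was 2.78 ± 0.33 in cesium against control (adjusted p = 0.000428) and 3.23 without cesium replicate 3. Against low potassium it was 3.15 ± 0.33 (adjusted p = 0.000150), and low potassium against control gave -0.38 ± 0.33 (adjusted p = 0.398). This was the largest change of any tested UGT gene in the 3 comparisons.

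UGT84A3, which forms glucose esters of hydroxycinnamic acids, had 7.10, 5.48 and 2.94 FPKM in cesium, 3.62, 3.74 and 5.15 FPKM in low potassium and 0.968, 0.890 and 0.747 FPKM in control. Every stress library was above every control library, and the cesium and low-potassium libraries overlapped. It rose by 1.66 ± 0.24 in cesium (adjusted p = 0.00107) and by 1.46 ± 0.24 in low potassium (adjusted p = 0.00144).

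UGT73B4, one of the stress-responsive UGT73B enzymes, had 41.5, 35.3 and 26.5 FPKM in cesium, 32.9, 35.9 and 28.8 FPKM in low potassium and 17.2, 21.6 and 10.5 FPKM in control. No control library reached the stress libraries. Its log2 change was 1.06 ± 0.23 in cesium (adjusted p = 0.0104) and 0.99 ± 0.23 in low potassium (adjusted p = 0.00932). The files give it a region shared with its neighbour UGT73B5, 89.8% identical in coding sequence, so how reads were split between them is uncertain. UGT73B1, of the same group, averaged 30.4 ± 8.15 FPKM in cesium, 30.9 ± 4.07 FPKM in low potassium and 18.1 ± 1.32 FPKM in control, and passed in both (log2 change 0.69 ± 0.17 and 0.74 ± 0.17). In cesium it did not pass without control replicate 1 (adjusted p = 0.0573).

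AT3G46700, for which the annotation gives only the superfamily, had 116, 89.6 and 80.8 FPKM in cesium, 68.6, 76.3 and 62.4 FPKM in low potassium and 40.7, 46.5 and 50.4 FPKM in control. The 3 groups did not overlap and stood in that order. The log2 change was 1.03 ± 0.14 in cesium (adjusted p = 0.000810) and 0.58 ± 0.14 in low potassium (adjusted p = 0.00973). The step between cesium and low potassium (0.45 ± 0.14, adjusted p = 0.0318) was lost without each of 4 single libraries, cesium replicates 1 and 2 and low-potassium replicates 1 and 3 (highest adjusted p = 0.102).

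UGT85A2 averaged 101 ± 18.6 FPKM in cesium, 121 ± 7.98 FPKM in low potassium and 67.7 ± 2.39 FPKM in control, and rose by 0.56 ± 0.12 and 0.83 ± 0.12 on the log2 scale (adjusted p = 0.0102 in cesium and 0.000935 in low potassium). AT5G53990 averaged 12.9 ± 1.92 FPKM in cesium, 17.7 ± 0.573 FPKM in low potassium and 6.69 ± 0.755 FPKM in control (log2 changes 0.85 ± 0.11 and 1.28 ± 0.11). UGT76E2 was at 3.95 ± 0.174, 3.76 ± 0.823 and 2.05 ± 0.413 FPKM in cesium, low potassium and control. In all 3 genes each stress library was above each control library. AT2G18560 and AT4G15260 rose less in cesium (0.48 ± 0.12 and 0.32 ± 0.088), and each lost that call without any of 5 single libraries, namely cesium replicates 1 and 2 and control replicates 1 to 3 (highest adjusted p = 0.0621 and 0.0864). By the authors' deposited q-values AT2G18560 passed in cesium (q = 0.00682) and AT4G15260 did not (q = 0.0941). AT3G21790 rose to 2.09 FPKM in cesium on average, against 0.66 FPKM in control (0.85 ± 0.21), and lost the call without control replicate 2 or 3 (highest adjusted p = 0.0521).

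Among the genes that fell in cesium, UGT72E3, a glucosyltransferase of sinapyl and coniferyl alcohols, had 5.94, 6.57 and 6.14 FPKM in cesium, 8.95, 9.11 and 6.23 FPKM in low potassium and 18.6, 23.4 and 22.3 FPKM in control. The control libraries stood far above all 6 stress libraries, which overlapped each other. The gene fell by 1.63 on the log2 scale in cesium (-1.63 ± 0.14, adjusted p = 7.63e-05) and by 1.31 in low potassium (-1.31 ± 0.14, adjusted p = 0.000132). Its nearest relative UGT72E2, 89.5% identical in coding sequence, did not pass in either.

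UGT84A2 makes sinapoylglucose. It had 16.0, 13.4 and 14.4 FPKM in cesium, 27.4, 24.2 and 22.7 FPKM in low potassium and 31.7, 30.7 and 77.2 FPKM in control. The 3 groups did not overlap, and control replicate 3 stood far above the other controls. The log2 change in cesium was -1.47 ± 0.29 (adjusted p = 0.00579), and -1.05 without control replicate 3 (adjusted p = 0.000696). In low potassium it was -0.75 ± 0.29 and did not pass (adjusted p = 0.0650), and without control replicate 3 it was -0.33 and passed (adjusted p = 0.0490).

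AT3G29630 had 4.62, 4.99 and 4.89 FPKM in cesium, 11.4, 10.9 and 9.21 FPKM in low potassium and 12.4, 11.8 and 15.3 FPKM in control. The 3 groups did not overlap, with cesium far below the others. The gene fell in cesium (-1.27 ± 0.11, adjusted p = 9.37e-05) and did not pass in low potassium (-0.29 ± 0.11, adjusted p = 0.0647). It was lower in cesium than in low potassium as well (-0.97 ± 0.11, adjusted p = 0.000248). UGT75B2 fell under both stresses, averaging 3.17 ± 0.393 FPKM in cesium, 3.73 ± 0.892 FPKM in low potassium and 7.27 ± 0.776 FPKM in control. AT2G22930 averaged 12.2 ± 1.90, 7.90 ± 1.01 and 21.2 ± 2.34 FPKM in cesium, low potassium and control, and AT1G64920 and its tandem neighbour AT1G64910 also fell under both stresses.

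UGT74F1, a salicylate glucosyltransferase, fell in cesium only by the tests against control. It had 4.91, 4.57 and 5.12 FPKM in cesium, 8.85, 8.32 and 6.36 FPKM in low potassium and 8.31, 6.86 and 7.82 FPKM in control. Cesium libraries were below all others (log2 change -0.56 ± 0.12, adjusted p = 0.00958), and the difference between cesium and low potassium passed too (-0.58 ± 0.12, adjusted p = 0.00572). In the authors' deposited table UGT74F1 did not pass in cesium (q = 0.0543). The remaining calls in cesium were weaker. AT4G09500 averaged 2.89 ± 0.324 FPKM in cesium against 4.86 ± 0.462 FPKM in control (-0.59 ± 0.11). UGT71C4, UGT76C1, AT3G22250 and AT3G46720 had log2 changes of -0.34, -0.31, -0.56 and -0.36, and leaving out cesium replicate 2, cesium replicate 3, control replicate 1 or control replicate 3 ended the call of each. Control replicate 2 did so for UGT76C1, AT3G22250 and AT3G46720, cesium replicate 1 for AT3G22250, low-potassium replicates 1 and 2 for UGT71C4 and AT3G22250, and low-potassium replicate 3 for UGT71C4 and UGT76C1 (highest adjusted p = 0.146 for UGT71C4). UGT71C4 and UGT76C1 did not pass in cesium by the authors' deposited q-values (q = 0.145 and 0.111). AT3G22250 and AT3G46720 passed by them (q = 0.00823 and 0.0470). Of the 25 calls in cesium, 17 held without each of the 9 libraries in turn.

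Low-potassium roots were set against the same control libraries. Of the 97 UGT genes, 47 passed (48.5%), 22 higher and 25 lower, against 37.6% of all genes tested (18.8% higher and 18.8% lower). Among family 1 genes it was 44 of 79, and among the other-domain genes 3 of 18. The median log2 change was -0.026, against 0.0018 for all genes. A log2 change of 1 or more was found for 17 of them, 7 higher and 10 lower. Stress and control libraries overlapped in 1 of the 47, and of all 97 tested UGT genes 64 had no overlap. Here too the share over all genes was not counted, and nothing is read from it. By the q-values of the authors' deposited table, 52 of the 97 passed (53.6%), 23 higher and 29 lower, against 30.1% of all genes tested there. With limma, 35 of the 47 calls held without each of the 9 libraries in turn.

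UGT87A2, known for a role in flowering time, had 29.6, 23.9 and 18.4 FPKM in cesium, 51.8, 58.1 and 47.2 FPKM in low potassium and 16.9, 21.6 and 13.9 FPKM in control. The low-potassium libraries stood above all others, and cesium and control overlapped. Its log2 change was 1.55 ± 0.19 in low potassium (adjusted p = 0.000287) and 0.43 ± 0.19 in cesium, which did not pass (adjusted p = 0.123). Without cesium replicate 3 it was 0.60 and passed (adjusted p = 0.0344).

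UGT72E1, which glucosylates coniferyl and sinapyl aldehydes, had 106, 84.4 and 57.3 FPKM in cesium, 175, 194 and 199 FPKM in low potassium and 64.5, 69.2 and 82.2 FPKM in control. Only the low-potassium libraries were set apart. The log2 change was 1.39 ± 0.19 in low potassium (adjusted p = 0.000627) and -1.23 ± 0.19 in cesium against low potassium (adjusted p = 0.00125). UGT72E2 was at 377 ± 5.92 FPKM in low potassium against 266 ± 33.8 FPKM in control, a log2 change of 0.51 ± 0.26 that did not pass (adjusted p = 0.160) and that passed without cesium replicate 3 (adjusted p = 0.0108). It also passed in the fit on the 6 libraries compared (adjusted p = 0.00634), and its low-potassium and control libraries did not overlap. Differences between the 3 UGT72E genes were not tested.

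AT3G46690 had 7.01, 7.11 and 4.6 FPKM in cesium, 14.2, 16.3 and 13.7 FPKM in low potassium and 3.69, 5.03 and 5.28 FPKM in control. AT4G15260 had 9.42, 9 and 7.83 FPKM in cesium, 19.8, 20.0 and 22.0 FPKM in low potassium and 6.57, 6.77 and 7.08 FPKM in control. In both genes the low-potassium libraries were the highest and overlapped no other group. AT3G46690 did not pass in cesium (0.34 ± 0.16, adjusted p = 0.157), but did without cesium replicate 3 (0.52, adjusted p = 0.0245). The log2 changes of AT3G46690 and AT4G15260 in low potassium were 1.48 ± 0.16 (adjusted p = 0.000191) and 1.47 ± 0.088 (adjusted p = 6.37e-06). AT4G15260 lies beside UGT71B5, so in this pair of neighbours 1 gene rose most in low potassium and the other in cesium.

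UGT76C2, which attaches glucose to ring nitrogens of cytokinins, had 22.0, 18.6 and 15.8 FPKM in cesium, 27.4, 29.9 and 29.9 FPKM in low potassium and 16.7, 16.0 and 15.9 FPKM in control. The low-potassium libraries stood above the rest (log2 change 0.80 ± 0.11, adjusted p = 0.000549), and cesium overlapped control. In cesium UGT76C2 did not pass (0.19 ± 0.11, adjusted p = 0.234), but did without cesium replicate 3 (0.30, adjusted p = 0.0364). UGT89B1 also rose in low potassium (0.79 ± 0.22, adjusted p = 0.0190) and lost the call without low-potassium replicate 2, control replicate 1 or control replicate 3 (highest adjusted p = 0.0739).

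Among the genes that fell in low potassium, AT2G31790 had 40.2, 38.4 and 22.7 FPKM in cesium, 17.3, 13.3 and 10.4 FPKM in low potassium and 36.4, 36.9 and 43.0 FPKM in control. The low-potassium libraries were the lowest and the other groups overlapped (log2 change -1.46 ± 0.22, adjusted p = 0.00103). AT3G55700 had 2.04, 2.68 and 1.39 FPKM in cesium, 0.186, 0.220 and 0.211 FPKM in low potassium and 2.63, 3.13 and 3.12 FPKM in control. This gene fell by 1.71 on the log2 scale (-1.71 ± 0.16, adjusted p = 8.18e-05), the lowest value of any tested UGT gene in this comparison, and the added 1 FPKM understates it.

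AT1G06000 had 68.7, 66.4 and 65.6 FPKM in cesium, 44.9, 43.7 and 32.4 FPKM in low potassium and 66.8, 62.4 and 171 FPKM in control. The low-potassium libraries were the lowest, and control replicate 3 was far above all others. The log2 change in low potassium was -1.14 ± 0.32 (adjusted p = 0.0194), was -0.68 without control replicate 3 (adjusted p = 0.00727), and lost the call without low-potassium replicate 3 (adjusted p = 0.0699). AT1G10400, AT1G50580, UGT71C1, AT5G05900 and AT2G28080 fell in low potassium as well (log2 changes -0.97, -0.94, -0.87, -0.91 and -0.74). AT4G27560 fell (-1.21 ± 0.28), but the files give it a region shared with 205 genes and intervals that start at 0 in every library, and AT4G27570 is 96.0% identical to it, so its level is uncertain. For AT1G10400 the deposited intervals also start at 0 in every library, and it did not pass in low potassium by the authors' deposited q-values (q = 0.129).

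**Figure D2:**
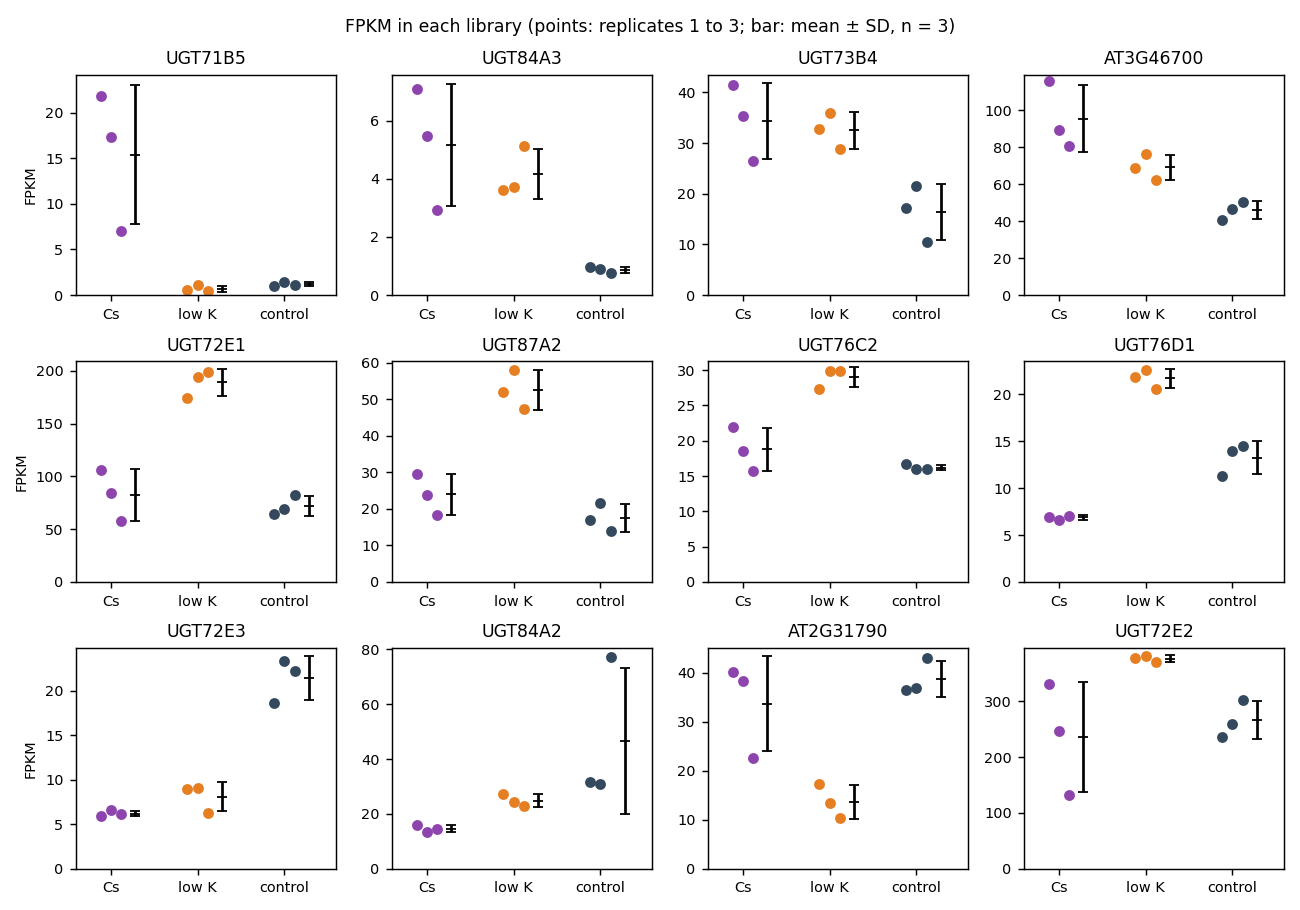
FPKM of 12 UGT genes in each library (points, replicates 1 to 3 from left to right) with mean ± SD (n = 3) for cesium (Cs), low potassium (low K) and control roots. UGT71B5 is high in cesium only (6.97 to 21.9 FPKM), UGT72E1, UGT87A2 and UGT76C2 are high in low potassium, UGT84A3 and UGT73B4 are high under both stresses, UGT72E3 is low under both, and UGT76D1 is lowest in cesium and highest in low potassium.

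The comparisons with control share the control libraries, so their calls are set side by side without a test of likeness. Of the 97 genes, 9 were higher and 7 lower under both stresses, and 1, UGT76D1, was lower in cesium and higher in low potassium. As shares of the genes tested, these were 9.28%, 7.22% and 1.03%, against 4.92%, 7.04% and 1.72% of all genes. Nothing is read from these shares, since shared control libraries tie the calls together. Leaving out each library in turn gave 6 to 13 genes higher in both and 5 to 8 lower in both. The 9 genes are UGT84A3, UGT73B4, UGT73B1, UGT85A2, UGT76E2, AT3G46700, AT5G53990, AT2G18560 and AT4G15260. The 7 genes are UGT72E3, UGT75B2, AT2G22930, AT1G64910, AT1G64920, AT3G22250 and AT3G46720. In cesium alone 2 genes were called higher and 6 lower, and in low potassium alone 12 were called higher and 18 lower.

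Cesium was also set against low potassium directly. Of the 97 UGT genes 40 passed (41.2%), 18 higher and 22 lower in cesium, against 34.2% of all genes tested (16.7% higher and 17.4% lower). Without each of the 9 libraries in turn, 27 of the 40 calls held. UGT76D1, which glycosylates dihydroxybenzoic acids made from salicylate, had the lowest change. It had 6.96, 6.61 and 7.07 FPKM in cesium, 21.9, 22.6 and 20.6 FPKM in low potassium and 11.3, 14 and 14.5 FPKM in control. The groups did not overlap, with control in the middle. The log2 change between the stresses was -1.53 ± 0.098 (adjusted p = 1.06e-05), with -0.85 ± 0.098 in cesium and 0.68 ± 0.098 in low potassium against control (adjusted p = 0.000365 and 0.000811).

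UGT71B5, AT3G55700, AT2G31790, AT1G10400, AT1G50580 and AT5G05900 were higher in cesium than in low potassium, and the last 5 of them were low in low potassium and did not pass in cesium against control. UGT72E1, UGT87A2, AT3G46690, AT4G15260, UGT89B1 and AT3G29630 were lower in cesium. UGT72E2 passed in this comparison (-0.77 ± 0.26, adjusted p = 0.0489) but lost the call without any of 8 single libraries, all but cesium replicate 1. It stood at -0.40 without cesium replicate 3 (adjusted p = 0.0535). AT4G27560 lost its call without cesium replicate 1 or 2 or low-potassium replicate 3 (highest adjusted p = 0.0794).

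By the acceptor they are known for, the hormone-conjugating UGT genes matched by name moved separately. Genes listed by acceptor were matched by name alone, and 65 of the 128 UGT genes carry only an identifier. A listed gene without a match may therefore stand elsewhere in these results under its identifier. Of 4 listed ABA genes UGT71B7 was not matched, and of the 3 matched only UGT71C5 was tested. UGT71C5, which glucosylates ABA, passed in neither comparison with control (log2 changes -0.20 in cesium and 0.23 in low potassium). It was lower in cesium than in low potassium (-0.43 ± 0.12, adjusted p = 0.0250), a call lost without cesium replicate 2 or 3 or low-potassium replicate 1 or 2 (highest adjusted p = 0.0932). Among the cytokinin genes, UGT76C2 rose in low potassium and UGT76C1 fell in cesium as given above. Both were lower in cesium than in low potassium (UGT76C2 -0.61 ± 0.11, adjusted p = 0.00236, and UGT76C1 -0.51 ± 0.097, adjusted p = 0.00359). UGT85A1 was higher in cesium than in low potassium (0.60 ± 0.15, adjusted p = 0.0121). Against control in low potassium UGT85A1 did not pass (-0.42 ± 0.15, adjusted p = 0.0506), but did without cesium replicate 3 (adjusted p = 0.0387) or control replicate 3 (-0.57, adjusted p = 0.0112). Of 6 listed auxin genes, UGT74E2, UGT75D1, UGT75B1 and UGT76F1 were not matched by name, and of the 2 matched only UGT74D1 was tested. UGT74D1, which acts on auxin and its oxidised form, fell in low potassium (-0.64 ± 0.18, adjusted p = 0.0199). That call was lost without low-potassium replicate 2 or 3 (highest adjusted p = 0.0688), and the change was -0.41 without control replicate 3. Of 7 listed salicylate and nicotinate genes, UGT74F2, UGT76C4 and UGT76C5 were not matched by name. Of the 4 matched and tested, UGT74F1 and UGT76D1 fell in cesium and UGT76D1 rose in low potassium. UGT76B1, which takes N-hydroxypipecolic and isoleucic acids, had 93.9, 84.6 and 72.6 FPKM in cesium against 71.0, 70.5 and 65.8 FPKM in control and did not pass (0.27 ± 0.10, adjusted p = 0.0827), although these libraries did not overlap and it passed without cesium replicate 3 (0.36, adjusted p = 0.0132). UGT71C3, a methyl salicylate glucosyltransferase, did not pass in cesium either (0.29 ± 0.10, adjusted p = 0.0641), but did without low-potassium replicate 2 or 3 (lowest adjusted p = 0.039).

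All 8 listed phenylpropanoid genes were tested. In cesium 1 rose (UGT84A3) and 2 fell (UGT72E3 and UGT84A2), where 10.8% of all genes were called higher and 12.7% lower. In low potassium 2 rose (UGT84A3 and UGT72E1) and 2 fell (UGT72E3 and UGT84A1), where 18.8% of all genes were called in each direction. UGT84A1 had 2.57, 1.59 and 1.24 FPKM in low potassium and 2.53, 4.19 and 11 FPKM in control, which overlap, and its change of -1.14 ± 0.37 (adjusted p = 0.0378) became -0.64 without control replicate 3 and did not pass (adjusted p = 0.0692). The call was also lost without cesium replicate 2, low-potassium replicate 2 or 3, or control replicate 2 (highest adjusted p = 0.117). UGT84A4, 81.7% identical to UGT84A3 in coding sequence and next to it, passed in neither (log2 changes -0.23 in cesium and -0.44 in low potassium), but did in low potassium without cesium replicate 3 (adjusted p = 0.0168) and in the fit on the 6 libraries compared (adjusted p = 0.0253). UGT78D2, a flavonoid 3-O-glucosyltransferase, had 15.2, 14.2 and 12.4 FPKM in low potassium and 17.9, 19.8 and 40.3 FPKM in control. It fell (-0.76 ± 0.25, adjusted p = 0.0351), lost the call without any 1 of the low-potassium libraries (highest adjusted p = 0.105), and stood at -0.41 without control replicate 3. With limma UGT78D2 did not pass in cesium, and UGT78D1, a flavonol 3-O-rhamnosyltransferase, passed in neither comparison (0.21 and -0.56). By the authors' deposited q-values UGT78D2 was lower in cesium (log2 change -0.85, q = 0.000491). By the same values UGT78D1 was lower in low potassium (-0.77, q = 0.000491). UGT75C1, UGT79B1 and UGT89C1, also listed for flavonoids, were not matched by name.

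Of the 2 listed glucosinolate genes, UGT74C1 was not matched by name and may stand under an identifier. UGT74B1, which makes the desulfoglucosinolate step of glucosinolate synthesis, had 128, 121 and 106 FPKM in cesium, 91.2, 87.5 and 69.5 FPKM in low potassium and 105, 114 and 121 FPKM in control. Low potassium was the lowest group, without overlap (-0.46 ± 0.12, adjusted p = 0.0139), and cesium overlapped control (0.06 ± 0.12). The sterol glucosyltransferases UGT80A2 and UGT80B1 did not pass in cesium. UGT80B1 fell in low potassium (-0.40 ± 0.11, adjusted p = 0.0203), a call lost without low-potassium replicate 2, control replicate 1 or control replicate 3 (highest adjusted p = 0.0718). Of 8 listed stress-responsive genes, UGT73B2, UGT79B2 and UGT79B3 were not matched by name and may stand under an identifier. Of the 5 matched, 4 were tested, all of them UGT73B genes. UGT73B1 and UGT73B4 rose under both stresses, and UGT73B3 and UGT73B5 passed in neither. UGT73B3 in low potassium (0.52 ± 0.21, adjusted p = 0.0752) passed without cesium replicate 1 or 3 (lowest adjusted p = 0.00652) and in the fit on the 6 libraries compared (adjusted p = 0.00569). Brassinosteroid conjugation could not be tested, since UGT73C6 was below the filter and UGT73C5 was not matched by name. Among the other-domain genes ATTPS6 (0.54 ± 0.12) and DGD1 (0.24 ± 0.085) rose and AT1G73160 (-0.75 ± 0.16) fell in low potassium. The DGD1 call (adjusted p = 0.0465) was lost without any of 6 single libraries (cesium replicates 1 and 2, low-potassium replicates 2 and 3, control replicates 1 and 2) and under 5 other settings, among them the replicate block (highest adjusted p = 0.149 over the libraries). DGD1 did not pass in low potassium by the authors' deposited q-values either (q = 0.170).

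The position of the genes was described apart from the choice of members. In 22 tandem clusters, taken as UGT genes at most 10 kb apart on TAIR10.1, lay 66 genes (51.6%), all of family 1, the largest cluster holding 7. Family 1 genes had a median of 1 exon and the other-domain genes of 5.5. Of all genes tested, 10.8% were called higher and 12.7% lower in cesium. In cesium all 11 UGT genes called higher lay in clusters, 11 of 44 tested genes there and 0 of 35 family 1 genes outside. Genes that fell numbered 5 of 44 inside and 9 of 35 outside. This split was noticed after the values were seen and carries no test, and without cesium replicate 3 it was 14 inside and 4 outside. In low potassium 13 higher and 12 lower calls lay inside clusters, and 7 higher and 12 lower calls among family 1 genes outside. Of all genes tested, 18.8% were called in each direction there.

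Calls of tandem neighbours are set side by side here, and differences between neighbours were not tested. Of 15 clusters with at least 2 tested genes, 9 held both called and uncalled genes in cesium and 11 in low potassium, and calls of opposite sign stood in 1 cluster in cesium and 3 in low potassium. In the chromosome 3 cluster that runs from AT3G46650 to AT3G46720, AT3G46700 rose under both stresses, AT3G46690 rose in low potassium, AT3G46720 fell under both and AT3G46650 passed in neither. Without cesium replicate 3, AT3G46690 (0.52) and AT3G46650 (-0.42) passed in cesium and AT3G46720 (-0.27) did not. In the chromosome 5 cluster of cytokinin-conjugating UGT76C2 and UGT76C1, UGT76C2 rose and AT5G05900 fell in low potassium, UGT76C1 fell in cesium, and AT5G05880 and AT5G05890 passed in neither comparison with control. In the cluster of UGT84A1, UGT84A3 and UGT84A4 on chromosome 4, the middle gene rose and UGT84A1 fell in low potassium. The clusters are drawn gene by gene in the plot of tandem neighbours. Among the 67 members with a relative aligned over at least 80% of the coding sequence, identity to the nearest was 84.3% at the median and 96.0% at most, and 39 members share their region in the files with another gene, so neighbours' values may be split unevenly. Among the family 1 genes with a region of their own, 20 of 59 passed in cesium and 35 of 59 in low potassium. The shares of all genes tested that passed were 23.5% and 37.6%.

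**Figure D3:**
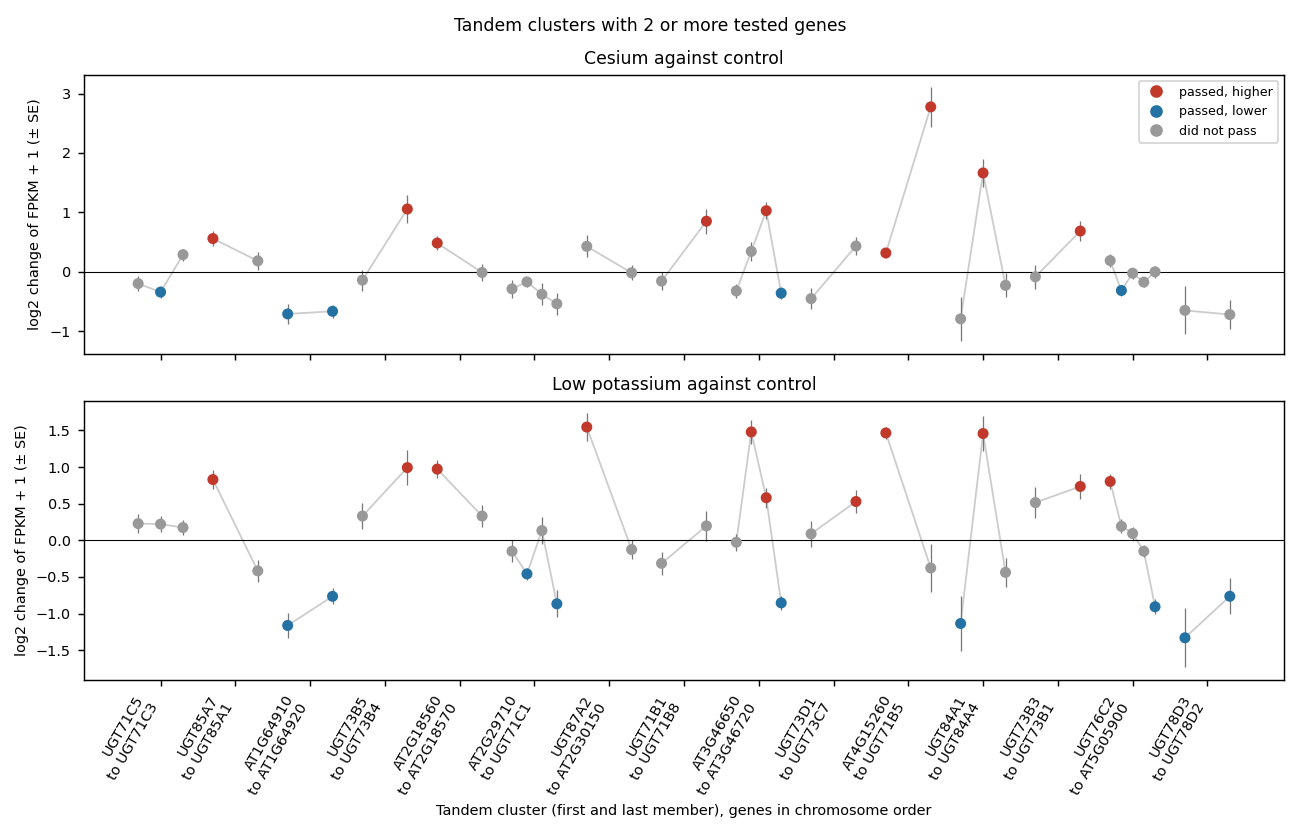
Log2 change of FPKM + 1 (± SE) of tested genes in the 15 tandem clusters with at least 2 of them, in chromosome order and joined by a line, for cesium (top) and low potassium (bottom) against control. Red passed as higher, blue as lower, grey did not pass. Steep lines mark neighbours with unlike values, such as AT4G15260 (0.32) and UGT71B5 (2.78) in cesium, whose order is turned in low potassium (1.47 and -0.38).

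UGT enzymes depend on the supply of sugar donors and acceptors, and glucosidases can undo their work, so genes of these steps are set beside them. Of 16 tested genes of UDP-sugar supply, 0 rose and 9 fell in cesium, and 1 rose and 13 fell in low potassium. Of all genes tested, 10.8% were called higher and 12.7% lower in cesium, and 18.8% in each direction in low potassium. Medians of the UDP-sugar genes were -0.42 and -0.57, against 0.020 and 0.0018 for all genes. In either direction, 12 had an unadjusted p under 0.05 in cesium by limma, and 11 passed by the authors' deposited q-values. SUS4, a sucrose synthase, fell most, by 2.07 in cesium and by 2.93 in low potassium on the log2 scale. UGP1, a UDP-glucose pyrophosphorylase, was at 105 ± 12.8 FPKM in cesium against 146 ± 0.666 FPKM in control and fell by 0.48. SUS3 was the exception and rose in low potassium (1.32). Leaving out each library in turn gave 8 to 11 lower genes in cesium and 9 to 13 in low potassium. Summed FPKM of the list was 722 to 800 in cesium, 600 to 785 in low potassium and 1046 to 1206 in control, so no stress library reached a control library.

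Flavonoid synthesis supplies acceptors of UGT78D1 and UGT78D2. Of 6 tested genes listed for it, 4 fell in cesium and 6 in low potassium, and none rose in either. Both counts include MYB12 (-0.84 in cesium and -1.01 in low potassium), a transcription factor and not an enzyme of the pathway. Of all genes tested, 12.7% were called lower in cesium and 18.8% in low potassium. The flavonoid genes had medians of -1.36 in cesium and -1.81 in low potassium. Without control replicate 3 these were -0.83 and -1.15, and 4 and 6 genes passed as well. CHS, the enzyme that enters the pathway, was at 316 ± 27.5 FPKM in cesium against 847 ± 410 FPKM in control. Of 10 glucosidases that release glucosides, 5 rose and 0 fell in cesium, and 4 rose and 4 fell in low potassium. Their medians were 0.55 and 0.15, against 0.020 and 0.0018 for all genes, of which 10.8% and 18.8% were called higher and 12.7% and 18.8% lower. The list holds PYK10 (BGLU23), which is also among the root markers. BGLU18, a glucosidase that hydrolyses the glucose ester of ABA, was higher under both (2.14 in cesium and 0.99 in low potassium), and BGLU21 rose in cesium (0.67) and fell in low potassium (-0.70). BGLU45, a glucosidase of monolignol glucosides, rose in low potassium (2.07) and did not pass in cesium (0.61). Of 7 genes of the detoxification response, 0 passed in cesium with limma, where 23.5% of all genes tested passed. Of the 7, 1 had an unadjusted p under 0.05 by limma and 0 passed by the authors' deposited q-values. In low potassium 5 rose, among them TGA5 (0.65) and SCL14 (0.55), where 18.8% of all genes were called higher. The count was 2 without control replicate 1 or 3 or low-potassium replicate 1 or 3, and 3 without cesium replicate 2, low-potassium replicate 2 or control replicate 2.

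**Figure D4:**
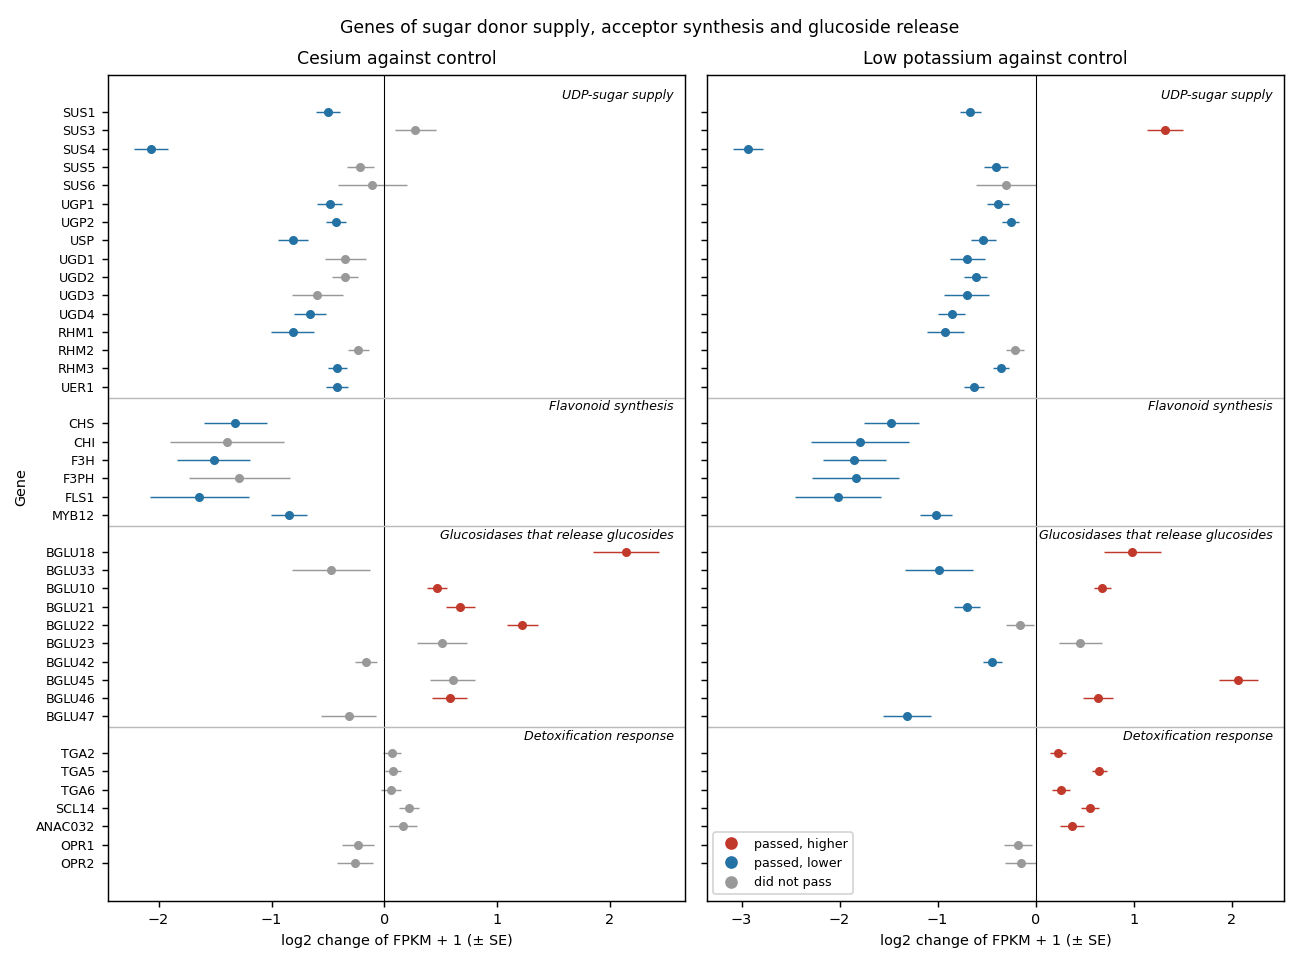
Log2 change of FPKM + 1 (± SE) of tested genes of UDP-sugar supply, flavonoid synthesis, glucoside release and the detoxification response, in cesium (left) and low potassium (right) against control. Red passed as higher, blue as lower, grey did not pass. The UDP-sugar genes lie mostly left of 0 in both panels (9 and 13 of 16 lower, against 12.7% and 18.8% of all genes). The detoxification genes stay near 0 in cesium.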

How the data were processed

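Root RNA of 9 libraries in 3 groups was used. The authors deposited FPKM per gene and library with interval bounds, and 2 comparison tables with group FPKM, log2 changes, p-values and q-values, per the file headers. Cufflinks 2.2.1, STAR 2.5.0c, Bowtie2 2.3.4.1 and the TAIR10 build are listed, per the submitters' processing notes. How each was used, the scaling between libraries and the strand setting are not given in the sources used here. Members and gene lists were chosen with earlier results of these data known.

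Each file lists 37547 genes, and 5 were dropped for a status other than OK. Values became log2(FPKM + 1), which understates changes of low genes. Genes averaging at least 1 FPKM (19536) were fitted in limma 3.58.1 (R 4.3.3) with a mean-variance trend on all 9 libraries, so the groups share an estimate of spread. P-values were Benjamini-Hochberg adjusted per comparison over all genes tested, with 0.05 as the threshold, and the fit was checked on simulated data. Named genes were taken per comparison from those that passed, did not overlap and reached 5 FPKM in the higher group. From these came the 8 highest and 8 lowest changes. The 5 most abundant genes and the tested genes of the role lists that were matched by name were added. Genes named outside that rule were picked with their values known. Gene structures, positions and promoters came from RefSeq's TAIR10.1, and coding identities from BLASTN 2.17.0. The file region equalled RefSeq's for 22832 of 32216 genes compared. Alternatives were other pseudocounts, filters, scalings, fits, a replicate block, q-values of the authors in place of limma's, and fits without each library in turn. The sequence of 1 promoter is not reported here.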

Additional observations from a re-analysis of the deposited data

How the results depend on the processing

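The counts of UGT genes called stayed within 1.5 times their value under the pseudocounts, filters, scalings and fits tried, except where a log2 change of at least 1 was asked. That left 4 higher and 3 lower in cesium, 7 higher and 10 lower in low potassium, and 3 higher and 6 lower in cesium against low potassium. Leaving out each library in turn gave 8 to 18 higher and 10 to 14 lower in cesium, with 18 without cesium replicate 3. It gave 17 to 27 higher and 19 to 28 lower in low potassium, and 13 to 23 higher and 16 to 26 lower in cesium against low potassium. With the replicate number as a block the counts were 11 and 13, 21 and 24, and 18 and 22. The block added calls of UGT87A2 in cesium (adjusted p = 0.0498) and UGT73B3 in low potassium (adjusted p = 0.0414). Deviations of same-numbered libraries correlated at -0.12 to 0.282, and 3 of the 9 pairs were above 0.1, so the samples were not treated as paired. Some changes past no threshold turned sign. Over the fits without 1 library each, changes in cesium ran from -0.547 to 0.106 for UGT72E2, from -0.359 to 0.133 for UGT72B1, from -0.0416 to 0.396 for UGT72E1, from -0.0014 to 0.136 for UGT74B1, from -0.0597 to 0.636 for UGT78D1, from -0.388 to 0.0266 for UGT84A4, from -0.301 to 0.187 for UGT73B3 and from -0.266 to 0.0513 for UGT73B5. The positive values of UGT72E2, UGT72B1, UGT84A4, UGT73B3 and UGT73B5 came without cesium replicate 3. In low potassium they ran from -0.0615 to 0.149 for UGT74F1 and from -0.0491 to 0.0431 for UGT76B1, and quantile normalization gave -0.0041 and 0.0080. The cause was not tested. Depth is unknown, and genes under 1 FPKM were not tested.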

Other observations

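Some UGT genes below the 1 FPKM filter separated the groups. UGT85A7 had 1.19, 0.859 and 1 FPKM in cesium, against 0.233, 0.173 and 0.237 FPKM in control, and UGT76E1 had 1.02, 0.931 and 1.14 FPKM in cesium, against 0.235, 0.285 and 0.187 FPKM in control. In both genes every cesium library was above every control library. The authors' deposited table gives log2 changes of 2.25 for UGT85A7 (q = 0.00132) and 2.13 for UGT76E1 (q = 0.0322). UGT76E1 is 89.8% identical in coding sequence to UGT76E2, which rose under both stresses, so reads may be split between them.

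AT2G22590 differed between the tests. It had 0.609, 0.311 and 0.928 FPKM in cesium, 1.64, 1.38 and 1.14 FPKM in low potassium and 1.13, 1.33 and 12.7 FPKM in control, where replicate 3 stands far above the other controls. With limma it did not pass in cesium (log2 change -1.35 ± 0.58, adjusted p = 0.122), while the authors' deposited table gives -3.03 for AT2G22590 in cesium (q = 0.000491).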
